A study of Homo sapiens with 8 samples.

Results

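Collagen and laminin chains are the protein subunits from which cells build basement membranes and fibrils. The chains were chosen by gene symbol alone, as every gene named COL, a number, A and a number, or LAMA, LAMB or LAMC and a number. The symbols matched 52 of the 20344 genes in either of 2 deposited tables, of which 41 were collagen and 11 were laminin chains. By class, 6 chains belonged to collagen IV, 11 to the fibrillar collagens and 24 to other collagens, and 5 laminin chains were alpha, 3 beta and 3 gamma. COL10A1, COL19A1, COL6A5 and LAMB4 also carry such symbols but were listed in neither table used here, and COL3A1 was listed only in the ETV4 KD table.

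The RNA came from H9 cells, an established human embryonic stem cell (hESC) line that carried no stated genetic change other than the hairpins below. In the crowding experiment, 2 low-density libraries (labelled small) were compared with 2 high-density libraries (labelled crowded), in which the adhesive Matrigel area was restricted. In the ETV4 knockdown (KD) experiment, cells carried either a control short hairpin RNA (shControl, 2 libraries) or a hairpin that targets ETV4 (shETV4, 2 libraries), a transcription factor of the ETS family. Total counts on genes ran from 50359703 to 62410168 per library. The study says in general that its experiments were repeated independently, but the sources used here state neither which ETV4 hairpin each shETV4 library carried nor that these replicates were separate cultures, so the p-values measure the spread between these libraries, which may be technical. All cultures grew on Matrigel, itself a basement membrane extract, and the values below are of the cells' own RNA, not of matrix protein. In RNA from whole cultures, fewer cells that use a gene and less RNA per cell cannot be told apart.

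Collagen IV chains assemble into the network of every basement membrane, while fibrillar collagens form the fibres of connective tissue. Each laminin joins an alpha, a beta and a gamma chain, and laminins polymerise on the cell surface next to the collagen IV network. hESCs grow as an epithelial sheet that adheres through integrins to laminin, which is why laminin coats are used to culture them.

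Levels are given in FPKM, a fragment count scaled to transcript length and to the mapped depth of its library, which allows chains of different length to be compared. Each experiment was normalized and tested on its own, and levels from both experiments are set side by side only as a description. Read counts were tested by quasi-likelihood in edgeR, and p-values were adjusted over all genes tested by the Benjamini-Hochberg method. Chains were called higher or lower where the adjusted p was below 0.05 and the log2 fold change exceeded 0.5 in size, and only these are said to have risen or fallen.

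The knockdown itself was checked first. The level of ETV4 was 90.8 and 95.1 FPKM with shControl, against 45.6 and 40.9 FPKM with shETV4. The log2 fold change was -1.15 ± 0.07 (SE, n = 2 per group, edgeR adjusted p = 0.00016), so the shETV4 libraries kept a substantial level of ETV4 RNA. In the crowding experiment ETV4 was at 73.2 and 72.6 FPKM at low density and at 54.2 and 53.9 FPKM at high density, and its log2 fold change of -0.49 ± 0.06 stayed just inside the fold threshold (edgeR adjusted p = 9.42e-07). The study reports that crowding lowers ETV4 protein, which these RNA values do not measure. All 7 pluripotency markers examined were present in both tables, led by POU5F1 with a mean of 1102 FPKM in the crowding libraries and 1223 FPKM in the KD libraries. None of the 7 was called with crowding. After ETV4 KD, TDGF1, a co-receptor of Nodal, fell from 333 and 340 to 195 and 184 FPKM (log2 fold change -0.82, edgeR adjusted p = 0.000386), and the RNA-binding protein gene LIN28A rose from 344 and 349 to 504 and 480 FPKM (log2 fold change 0.51, edgeR adjusted p = 0.00228). Their part in the changes of the chains was not tested.

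Only some chains of each class were abundant. At low density, COL18A1 (72.7 and 76.4 FPKM) and COL9A3 (65.5 and 67.8 FPKM) had the highest levels of all the chains. The laminin chain LAMC1, the collagen VI chain COL6A1, COL4A1, COL26A1 and COL1A1 followed between 26.9 and 30.5 FPKM, and neighbours in that order overlapped. COL18A1, whose product is a heparan sulfate collagen of basement membranes, also led the shControl libraries at 49.6 and 53.5 FPKM. The most abundant chain of each laminin class was LAMA5, LAMB1 and LAMC1 at low density, and LAMA1 and LAMA5 were close to each other in shControl. LAMA2, LAMA3 and LAMA4 stayed below 2 FPKM in all 8 libraries, as did LAMB3. The collagen IV chains COL4A3 and COL4A4, which are typical of kidney and other specialised basement membranes, stayed below 0.5 FPKM in every library. COL3A1, a fibrillar chain of mesenchyme, had only 2 and 12 reads in shControl and 2 and 2 in shETV4 and was too sparse to test.

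**Figure D1:**
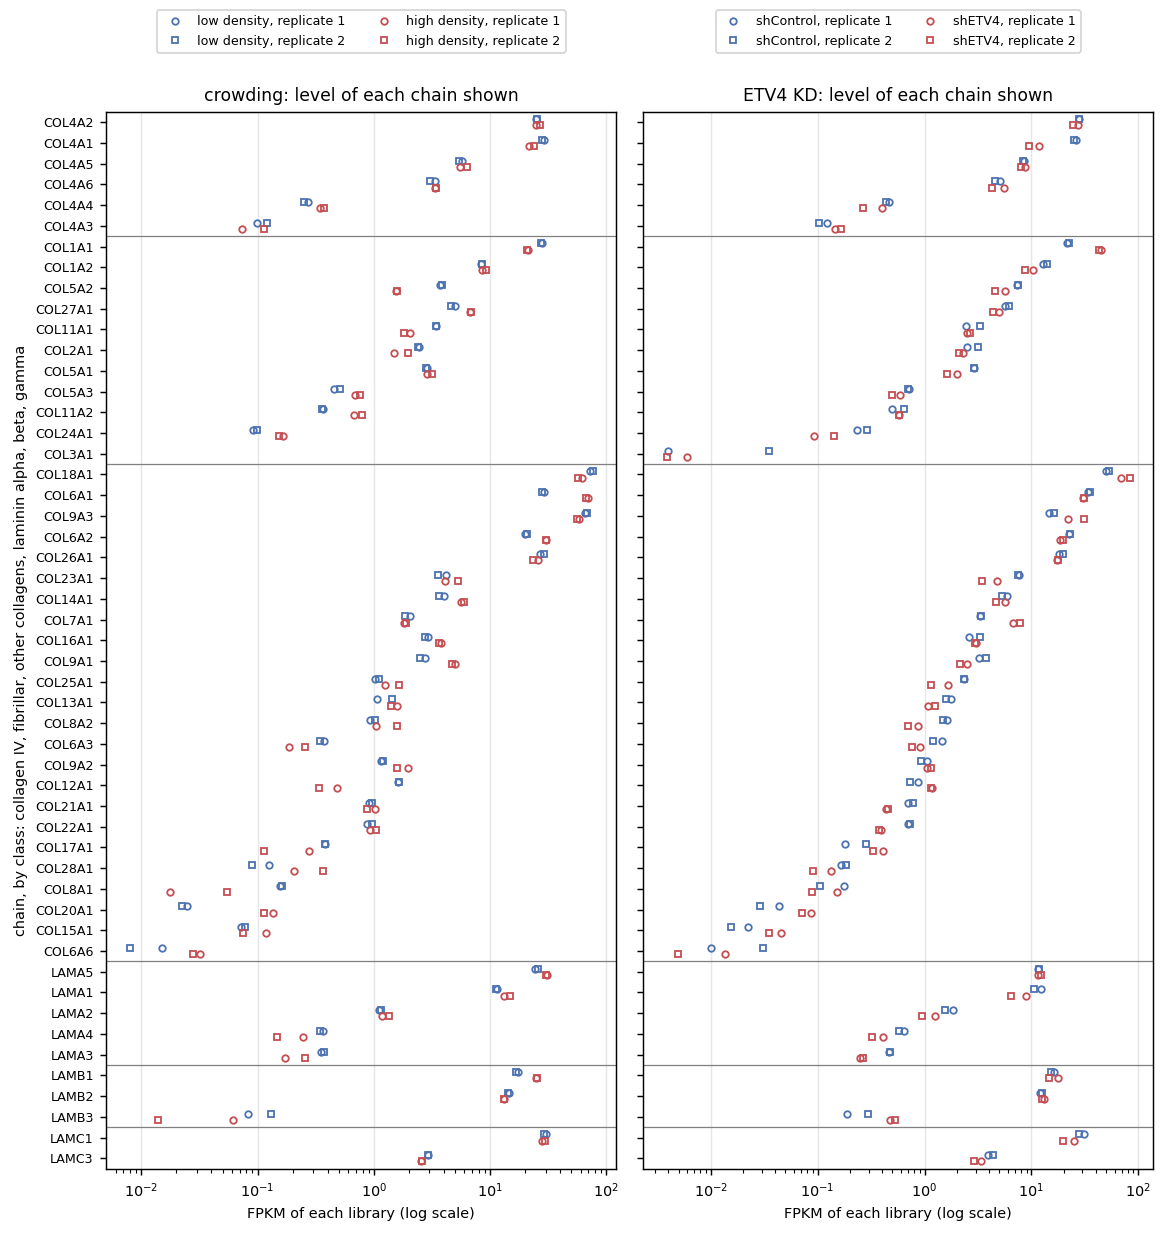
FPKM of 51 chains in each library on a log axis, with crowding on the left and ETV4 KD on the right. Blue symbols are the control group and red symbols the high-density or shETV4 group, circles replicate 1 and squares replicate 2, and grey lines part the classes. The levels span from COL3A1, with a few reads, to COL18A1, which exceeds 80 FPKM in 1 shETV4 library. Replicates of the abundant chains lie close together in the crowding libraries. In shETV4, COL9A3 was at 22.2 and 31.3 FPKM, COL18A1 at 69.2 and 83.2 FPKM and LAMA1 at 8.92 and 6.49 FPKM.

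Crowding changed chains in both directions. Of the 51 chains in the table, all passed the filter on low counts, and 10 were called higher (19.6%, against 10.7% of all 17672 genes tested) and 11 lower (21.6%, against 5.47% of all genes). Together 41.2% of the chains were called, against 16.1% of all genes. The median log2 fold change of the chains was 0.04, next to 0.00 over all genes tested. The calls of COL6A1, COL9A1, COL5A2, COL11A1 and COL12A1 held in every fit at these thresholds and with each library left out. Their adjusted p was smaller with a library left out than with all libraries, so those fits bear on the fold size only. limma on log2(FPKM + pseudocount), which damps low levels, called 4 to 7 chains higher and 4 lower. Chains with a mean below 0.5 FPKM were left out before testing in all of these fits except that over all genes. Only that fit could call such a chain, and it called none.

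After ETV4 KD, more chains were called lower than higher. Of the 50 chains that passed the filter, 14 were called lower (28.0%, against 7.10% of all 17879 genes tested) and 6 higher (12.0%, against 5.88% of all genes), so that 40.0% were called, next to 13.0% of all genes. COL3A1 and COL6A6 did not pass. The median log2 fold change of the chains was -0.23, next to 0.00 over all genes. The calls of COL4A1, COL1A1, COL7A1, COL8A2 and COL23A1 held in every fit at these thresholds and with each library left out. Here too the adjusted p was mostly smaller with a library left out, so those fits bear mainly on the fold size. Without shETV4 replicate 2, calls were lost in both directions. These were COL9A3, COL18A1 and LAMB3 among the chains called higher, and COL5A2, COL9A1, COL21A1, LAMA1 and LAMA2 among those called lower. limma on log2(FPKM + pseudocount) called 4 chains higher and 4 to 8 lower. Again only the fit over all genes tested chains with a mean below 0.5 FPKM, and it called none of them. LAMA1, LAMA3, COL4A1, COL5A1, COL8A2, COL23A1 and COL24A1 had been picked by the study from the same libraries. All 14 lower calls rest on those libraries, so none of these falls is independent evidence of a direction.

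**Figure D2:**
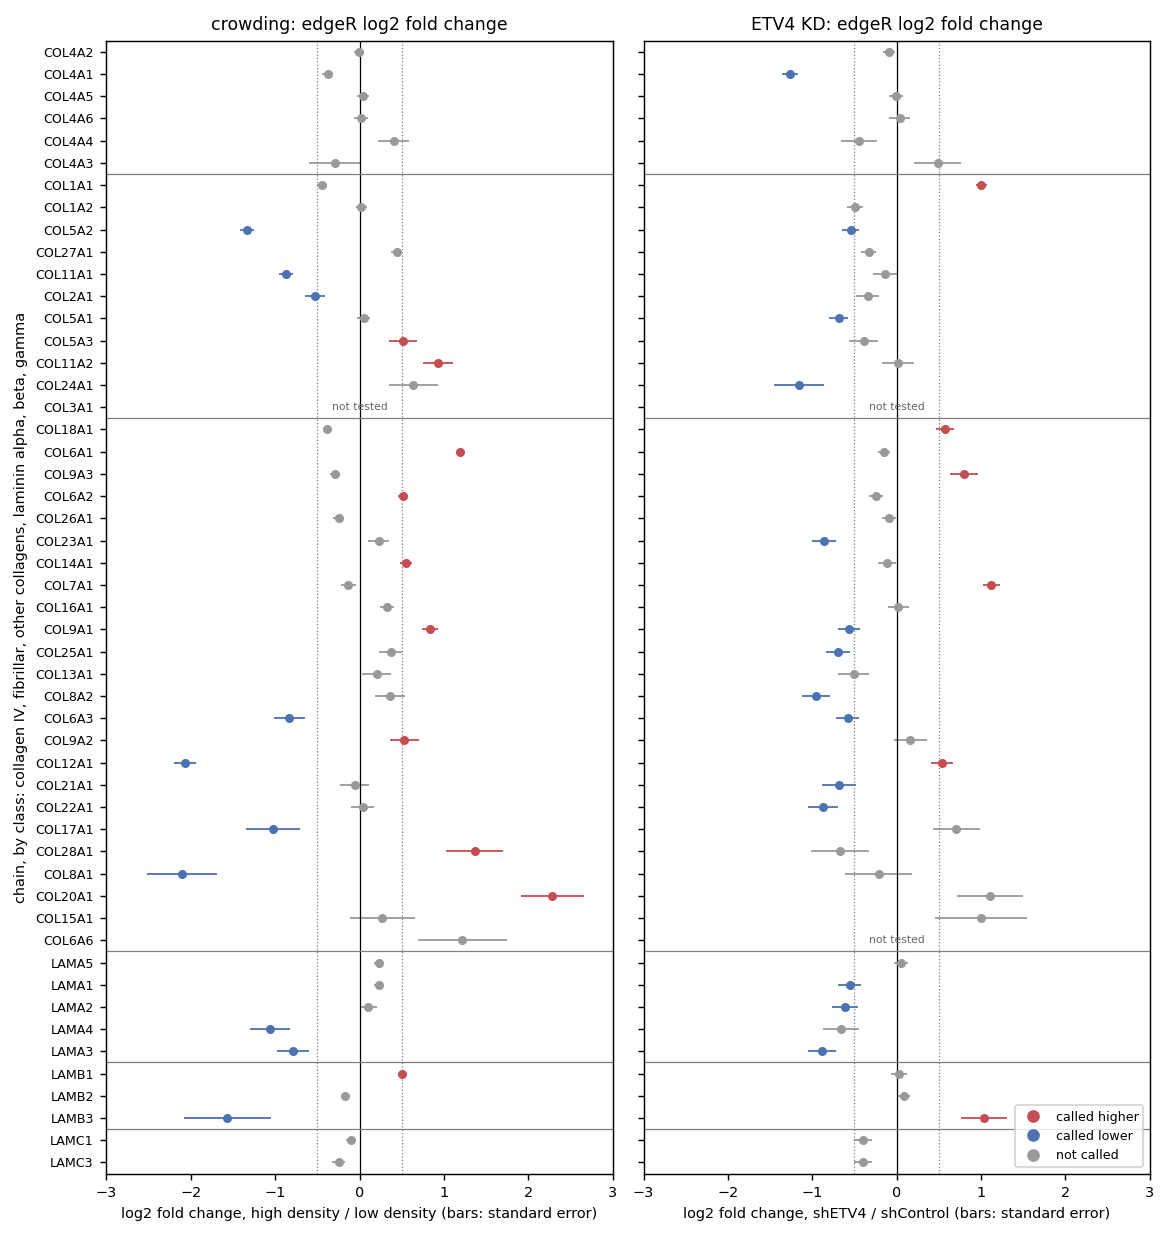
edgeR log2 fold change of the chains tested, high density over low density on the left and shETV4 over shControl on the right, with bars of 1 standard error. Red points are chains called higher, blue points called lower and grey points not called, and dotted lines mark an absolute log2 fold change of 0.5, and COL3A1 in both panels and COL6A6 after KD are marked as not tested. After ETV4 KD, COL4A1 lies at -1.27 while the other collagen IV chains lie within 0.5 of 0, and COL12A1 and COL8A1 have the largest falls with crowding.

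Among the collagen IV chains, COL4A1 fell after ETV4 KD while its partner COL4A2 was not called. COL4A1 and COL4A2 together form the collagen IV of nearly all basement membranes. COL4A1 was at 26.0 and 25.1 FPKM in shControl and at 11.7 and 9.45 FPKM in shETV4. That was a 2.40-fold fall (log2 fold change -1.27 ± 0.10, SE, n = 2 per group, edgeR adjusted p = 0.000282), with no overlap between the groups. COL4A2 was at 27.9 and 27.6 FPKM in shControl and at 27.4 and 24.7 FPKM in shETV4 (log2 fold change -0.09 ± 0.07, edgeR adjusted p = 0.414). COL4A1 RNA was thus nearly level with COL4A2 RNA in shControl and well below it in shETV4. The ratio of COL4A1 to COL4A2 in FPKM was 0.931 and 0.907 in shControl and 0.427 and 0.383 in shETV4. With crowding the ratio moved the same way by less, from 1.15 and 1.12 at low density to 0.871 and 0.884 at high density. The chain pairs whose ratios are given were chosen after the values were seen, and with 2 libraries per group the smallest two-sided p of an exact permutation test is 0.33.

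After ETV4 KD, COL4A4, at under 0.5 FPKM, was called lower only without shETV4 replicate 1 (-0.74), and with crowding none of the 6 collagen IV chains was called. COL4A1 went from 28.8 and 28.0 FPKM to 21.6 and 23.8 FPKM, and at -0.38 ± 0.06 its log2 fold change was within the fold threshold (edgeR adjusted p = 4.21e-05). COL4A2 was at 24.9 and 25.0 against 24.8 and 26.9 FPKM, and its groups overlapped. COL4A5 and COL4A6, which lie head to head on the X chromosome and form another network, overlapped between the groups in both experiments. Their log2 fold changes lay between -0.01 and 0.04. The ratio of COL4A5 to COL4A6 was 1.75 ± 0.07 (SD, n = 2) in the low-density and 1.77 ± 0.15 in the high-density libraries, next to 1.73 ± 0.12 in shControl and 1.70 ± 0.21 in shETV4. The summed FPKM of the 6 collagen IV chains was 68.0 and 66.1 in shControl and 54.0 and 46.8 in shETV4, and 63.2 and 61.9 at low density and 55.7 and 61.0 at high density. COL4A1 made up 38.1% ± 0.2 of that sum in shControl and 21.0% ± 1.1 in shETV4, while COL4A2 went from 41.4% ± 0.5 to 51.8% ± 1.3.

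COL4A1 lies on the minus strand of chromosome 13 (GRCh37, chr13:110801310-110959504) and COL4A2 on the plus strand (chr13:110958159-111165556), and the annotated spans overlap at their starts. The stretch between the RefSeq start sites of both genes, 126 bases long on GRCh38.p14 (chr13:110307158-110307283, plus strand), is shown because it is the promoter that the diverging pair shares. Beside it stand the 250 bases before the start of COL7A1 (GRCh38.p14, chr3:48595330-48595579, minus strand), the largest rise after ETV4 KD among called chains with a mean of at least 1 FPKM, and of COL12A1 (chr6:75206054-75206303, minus strand), the largest fall with crowding by the same measure. Capitals mark, on either strand, AGGAAG and the related CCGGAA (cores bound by ETS factors), the CCAAT box, the TATA motif TATAAA and the GC box GGGCGG, of which none contains another.
COL4A1/COL4A2: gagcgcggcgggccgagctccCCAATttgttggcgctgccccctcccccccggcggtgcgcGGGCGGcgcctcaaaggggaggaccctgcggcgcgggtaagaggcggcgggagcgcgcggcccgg
COL7A1: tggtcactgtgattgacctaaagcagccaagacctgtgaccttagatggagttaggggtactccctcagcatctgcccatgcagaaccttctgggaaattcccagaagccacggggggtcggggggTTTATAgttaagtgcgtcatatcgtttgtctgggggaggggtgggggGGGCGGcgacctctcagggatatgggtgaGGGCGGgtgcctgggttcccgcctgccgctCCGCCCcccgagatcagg
COL12A1: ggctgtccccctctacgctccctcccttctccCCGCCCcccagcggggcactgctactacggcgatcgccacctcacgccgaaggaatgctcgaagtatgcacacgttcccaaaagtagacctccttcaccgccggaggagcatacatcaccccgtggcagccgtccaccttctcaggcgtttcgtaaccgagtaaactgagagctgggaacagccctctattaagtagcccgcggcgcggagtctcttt

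The shared stretch held 1 CCAAT and 1 GGGCGG, and no AGGAAG or CCGGAA. RefSeq promoter windows were matched for 38 of the 52 chains. Of these, 12 had AGGAAG within the 250 bases before a start. No window was matched for COL5A2, COL22A1 and LAMA1, which fell after ETV4 KD, or for COL1A1 and COL9A3, which rose. The motif AGGAAG stood in 5 of the 11 matched chains that fell after ETV4 KD and in 0 of the 4 that rose, whereas the other ETS core, CCGGAA, stood in 0 of either set. The GC box stood in 7 of the 11 and in all 4, the CCAAT box in 2 and 1, and the TATA motif in 0 and 2. AGGAAG occurred in 28.7% of all 35116 RefSeq windows of that length, CCGGAA in 14.5%, CCAAT in 32.0%, TATAAA in 10.7% and GGGCGG in 42.6%. These shares are per window, whereas the counts are per chain and the 38 chains had 50 windows, so they are not in like units. CCGGAA occurred in 2 of the 38 chains, CCAAT in 11, TATAAA in 6 and GGGCGG in 27. These are matches of letters and not binding sites, and the difference between the few matched chains that fell and rose was not tested.

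**Figure D3:**
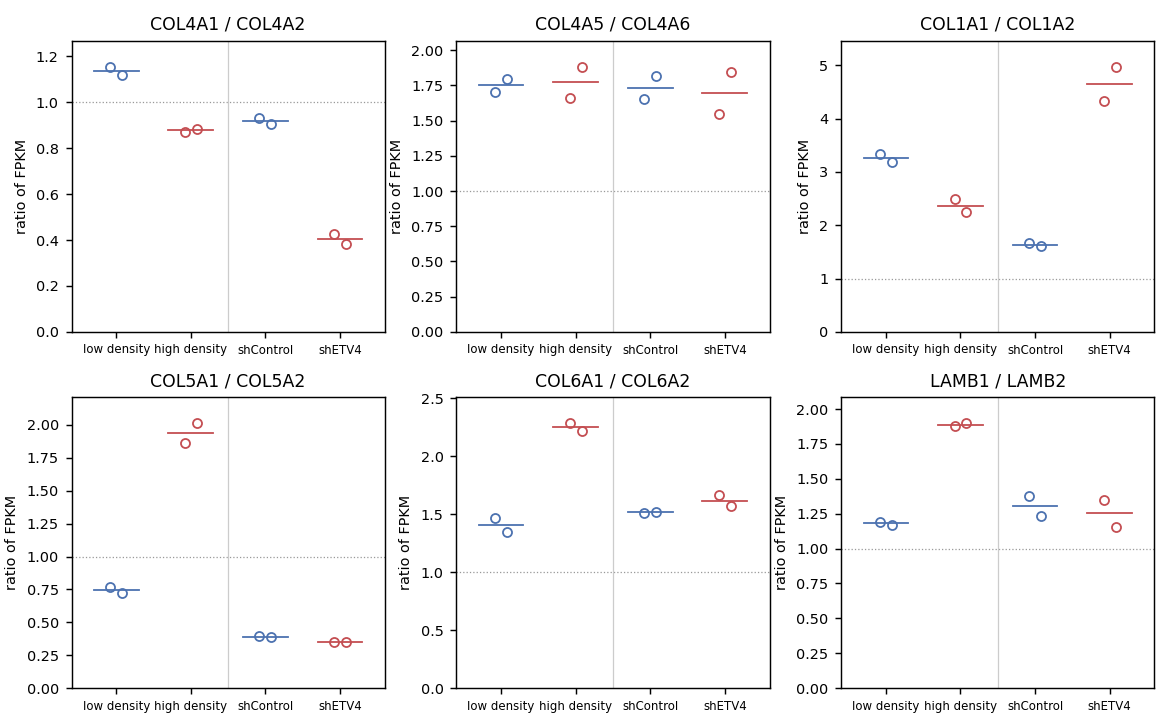
Ratio of FPKM between chains of the same collagen, or between the main laminin beta chains, in each library. Circles are libraries, horizontal lines group means, blue the control and red the high-density or shETV4 group, with crowding left and ETV4 KD right of the grey line, and the dotted line is a ratio of 1. COL4A1 / COL4A2 drops and COL1A1 / COL1A2 climbs after ETV4 KD, COL5A1 / COL5A2 and COL6A1 / COL6A2 climb with crowding, and COL4A5 / COL4A6 overlaps between groups.

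Fibrillar collagens changed unevenly as well. COL1A1 and COL1A2 encode the chains of type I collagen, the main collagen of bone and skin. After ETV4 KD, COL1A1 rose from 21.5 and 22.4 FPKM to 44.9 and 42.8 FPKM (log2 fold change 1.00 ± 0.07, SE, n = 2 per group, edgeR adjusted p = 0.000205). COL1A2 was at 12.9 and 14.0 FPKM in shControl and at 10.4 and 8.63 FPKM in shETV4, a log2 fold change of -0.50 ± 0.09 that lay just inside the fold threshold (edgeR adjusted p = 0.0101). The groups overlapped for neither chain, and the levels went in opposite directions. COL1A2 passed the threshold without shControl replicate 1 (-0.54) and without shETV4 replicate 1 (-0.60). The ratio of COL1A1 to COL1A2 was 1.67 and 1.60 in shControl and 4.33 and 4.96 in shETV4. With crowding it was 3.33 and 3.18 at low density and 2.49 and 2.24 at high density. COL1A1 went there from 27.8 and 27.2 to 21.4 and 20.8 FPKM (log2 fold change -0.44 ± 0.06, edgeR adjusted p = 3.75e-06, not called).

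COL5A1 and COL5A2 encode type V collagen, which starts and thins collagen fibrils. With crowding, COL5A2 fell from 3.72 and 3.86 to 1.55 and 1.58 FPKM (log2 fold change -1.33 ± 0.08, edgeR adjusted p = 1.18e-10). COL5A1 was at 2.85 and 2.78 FPKM at low density and at 2.88 and 3.18 FPKM at high density (log2 fold change 0.05 ± 0.08, edgeR adjusted p = 0.635). The ratio of COL5A1 to COL5A2 therefore went from 0.743 ± 0.032 (SD, n = 2) to 1.94 ± 0.10. After ETV4 KD both fell, COL5A1 from 2.92 and 2.90 to 1.99 and 1.61 FPKM (log2 fold change -0.69 ± 0.11, edgeR adjusted p = 0.00604) and COL5A2 from 7.36 and 7.52 to 5.64 and 4.55 FPKM (log2 fold change -0.54 ± 0.10, edgeR adjusted p = 0.00905). Their ratio was then 0.396 and 0.385 in shControl and 0.354 and 0.353 in shETV4. Without shETV4 replicate 2 the COL5A2 log2 fold change was -0.42 and its call was lost, and limma with a pseudocount of 1 called neither chain.

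Of the other fibrillar chains, COL11A1, a chain of cartilage type XI collagen, fell with crowding from 3.42 and 3.39 to 2.06 and 1.82 FPKM (log2 fold change -0.87 ± 0.08, edgeR adjusted p = 8.23e-08). COL2A1, the main collagen chain of cartilage, fell from 2.44 and 2.41 to 1.50 and 1.97 FPKM (log2 fold change -0.52), and this call was lost without high-density replicate 1 (-0.35) and in every limma fit of FPKM. COL11A2 rose from 0.365 and 0.359 to 0.668 and 0.792 FPKM (log2 fold change 0.93 ± 0.18, edgeR adjusted p = 0.000289), a call that was lost in limma with a pseudocount of 1 (0.34). COL11A1 and COL11A2 thus moved in opposite directions at levels that differ several fold. COL5A3 rose by a log2 fold change of 0.52, a call that was lost without low-density replicate 1 (0.44), without high-density replicate 2 (0.46) and in every limma fit. After ETV4 KD, COL24A1 fell from 0.236 and 0.290 to 0.0917 and 0.143 FPKM (log2 fold change -1.16 ± 0.30, edgeR adjusted p = 0.0279), on 40 to 118 reads per library. Its call was lost without shControl replicate 2 (-1.01) and without shETV4 replicate 1 (-0.86). The summed FPKM of the fibrillar chains was 54.5 and 53.8 in the low-density libraries, 46.1 and 47.1 in the high-density libraries, 56.7 and 61.0 in shControl and 73.9 and 68.0 in shETV4, and COL1A1 made up 37.3% ± 0.9 of it in shControl and 61.9% ± 1.5 in shETV4.

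**Figure D4:**
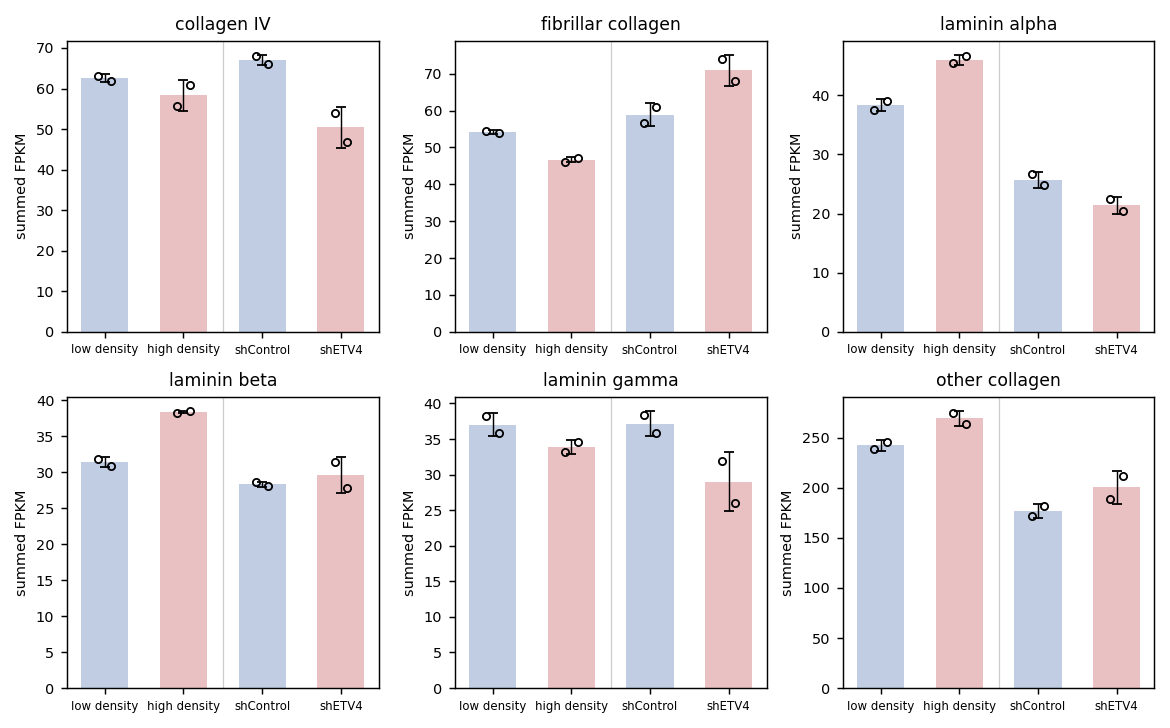
Summed FPKM of the chains of each class. Bars are the mean of 2 libraries, error bars their SD and circles the libraries, with crowding left and ETV4 KD right of the grey line in each panel, blue for the control and red for the high-density or shETV4 group. Collagen IV is lowest in shETV4 (54.0 and 46.8), fibrillar collagen is highest there (73.9 and 68.0), and laminin alpha and beta are higher at high than at low density.

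Collagen VI forms beaded microfilaments around basement membranes. Its chains COL6A1 and COL6A2 lie on chromosome 21 and both rose with crowding. COL6A1 was at 29.0 and 28.2 FPKM at low density and at 69.3 and 66.8 FPKM at high density (log2 fold change 1.19 ± 0.06, SE, n = 2 per group, edgeR adjusted p = 1.77e-12). COL6A2 was at 19.8 and 20.9 FPKM and at 30.3 and 30.1 FPKM (log2 fold change 0.52 ± 0.06, edgeR adjusted p = 4.26e-07), which came to 0.49 without low-density replicate 1. The log2 fold change of COL6A1 was the larger, and their ratio went from 1.41 ± 0.08 (SD, n = 2) to 2.25 ± 0.05. COL6A3, the third chain of the classic collagen VI molecule, fell from 0.375 and 0.342 to 0.188 and 0.255 FPKM (log2 fold change -0.83 ± 0.19, edgeR adjusted p = 0.00143) and so stayed far below the other chains on the FPKM scale. After ETV4 KD, COL6A1 (33.7 and 35.1 against 30.7 and 31.1 FPKM) and COL6A2 (22.3 and 23.1 against 18.4 and 19.8 FPKM) were not called. COL6A3 fell from 1.45 and 1.20 to 0.899 and 0.759 FPKM (log2 fold change -0.58 ± 0.13, edgeR adjusted p = 0.0199), a call that was lost without shControl replicate 1 (-0.47) and in every limma fit.

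The FACIT collagens decorate the surface of fibrils. With crowding, 4 of the 9 FACIT chains rose (44.4%, against 10.7% of all genes) and 1 fell (11.1%, against 5.47%). COL12A1, a FACIT of tendon and other dense tissues, fell from 1.63 and 1.66 to 0.481 and 0.337 FPKM (log2 fold change -2.07 ± 0.13, edgeR adjusted p = 2.24e-09). COL9A1 rose from 2.76 and 2.47 to 4.99 and 4.72 FPKM (log2 fold change 0.84 ± 0.09, edgeR adjusted p = 5.23e-07). COL9A3, its partner in cartilage type IX collagen, was at 65.5 and 67.8 against 58.1 and 55.3 FPKM (log2 fold change -0.29, not called), and so was far above COL9A1 in each of these libraries. COL14A1 rose by a log2 fold change of 0.55 (0.48 without low-density replicate 2, and also not called in limma with a pseudocount of 1), and COL20A1 rose by 2.29 ± 0.37, but only from 12 and 13 to 69 and 66 reads. COL9A2 rose by 0.53, and leaving out low-density replicate 1 (0.51), low-density replicate 2 (0.56) or high-density replicate 1 (0.35) ended its call, as did every limma fit but that with a pseudocount of 0.1.

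After ETV4 KD, 2 of the 9 FACIT chains rose (22.2%, against 5.88% of all genes) and 3 fell (33.3%, against 7.10%). COL9A3 rose from 14.6 and 16.4 to 22.2 and 31.3 FPKM (log2 fold change 0.80 ± 0.16, edgeR adjusted p = 0.0126), and the shETV4 libraries differed from each other. Without shETV4 replicate 2 its log2 fold change was 0.49 and the call was lost. COL9A1 fell from 3.22 and 3.74 to 2.52 and 2.16 FPKM (log2 fold change -0.56), a call that was lost without shControl replicate 2 (-0.46), without shETV4 replicate 2 (-0.48) and in every limma fit but that with a pseudocount of 0.1. COL12A1 rose by 0.54 (0.41 and not called without shControl replicate 2, and not called in any limma fit). COL22A1 fell by 0.88 on the log2 scale, from 280 and 270 to 154 and 143 reads, and was not called in any limma fit. COL21A1 fell by 0.68, and its call was lost with DESeq2, with no filter on low counts, in every limma fit and with each library left out (-0.75 and -0.60 without shControl replicates 1 and 2, -0.61 and -0.75 without shETV4 replicates 1 and 2).

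Other collagens of epithelia and of the cell surface also differed. COL7A1, which builds the fibrils that anchor skin epithelium to the dermis, rose after ETV4 KD from 3.29 and 3.37 to 6.69 and 7.76 FPKM (log2 fold change 1.12 ± 0.11, SE, n = 2 per group, edgeR adjusted p = 0.000733). With crowding COL7A1 was at 2.05 and 1.84 against 1.82 and 1.87 FPKM and its groups overlapped. COL18A1 rose after ETV4 KD from 49.6 and 53.5 to 69.2 and 83.2 FPKM (log2 fold change 0.57 ± 0.11, edgeR adjusted p = 0.00906), and came to 0.40 without shETV4 replicate 2. With crowding COL18A1 was at 72.7 and 76.4 against 61.7 and 57.3 FPKM (log2 fold change -0.38 ± 0.05, edgeR adjusted p = 1.21e-05, not called). The transmembrane collagens COL23A1 and COL25A1 fell after ETV4 KD, COL23A1 from 7.64 and 7.43 to 4.81 and 3.47 FPKM (log2 fold change -0.86 ± 0.14, edgeR adjusted p = 0.00595) and COL25A1 from 2.35 and 2.33 to 1.66 and 1.15 FPKM (log2 fold change -0.69 ± 0.14, edgeR adjusted p = 0.0126). The call of COL25A1 was lost in limma with a pseudocount of 1 and over all genes. COL8A2, a short-chain collagen of the corneal endothelium, fell from 1.62 and 1.48 to 0.863 and 0.702 FPKM (log2 fold change -0.96 ± 0.17, edgeR adjusted p = 0.00699). Its partner COL8A1 was sparse, fell with crowding from 50 and 63 to 7 and 22 reads (log2 fold change -2.11 ± 0.41) and overlapped between shControl and shETV4. Its log2 fold change with crowding was -3.02 without high-density replicate 2 and -1.59 without high-density replicate 1. COL17A1, the transmembrane collagen of hemidesmosomes, fell with crowding by 1.03 on the log2 scale, but came to -0.51 and lost its call without high-density replicate 2 and reached -1.80 without high-density replicate 1. COL28A1 rose with crowding by 1.37 (0.90 and not called without high-density replicate 2), from 31 and 27 to 56 and 113 reads.

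Of the laminin chains, the major alpha and gamma chains were not called with crowding, while the beta chain LAMB1 rose. LAMB1 was at 17.3 and 16.6 FPKM at low density and at 24.9 and 25.2 FPKM at high density (log2 fold change 0.51 ± 0.06, SE, n = 2 per group, edgeR adjusted p = 6.33e-07), and at 0.48 it lay below the fold threshold without low-density replicate 2. LAMB2, the other common beta chain, was at 14.5 and 14.2 against 13.3 and 13.3 FPKM (log2 fold change -0.17, not called). LAMB1 thus went from 54.0% ± 0.4 (SD, n = 2) of the summed beta chain FPKM to 65.3% ± 0.2. LAMA5 was at 24.3 and 25.9 against 30.8 and 30.2 FPKM (log2 fold change 0.22 ± 0.05, edgeR adjusted p = 0.00206). LAMA1, the first alpha chain of the embryo, was at 11.5 and 11.2 against 13.1 and 14.7 FPKM (log2 fold change 0.23 ± 0.06, edgeR adjusted p = 0.00531). Neither reached the fold threshold, although the groups of both were apart, and LAMC1 overlapped at 30.5 and 28.8 against 27.8 and 29.7 FPKM. The ratio of LAMB1 to LAMC1 was 0.571 ± 0.007 at low density and 0.871 ± 0.033 at high density.

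LAMA3 and LAMB3 belong to the laminin that hemidesmosomes of stratified epithelia bind, and both fell with crowding. LAMA3 fell from 0.349 and 0.376 to 0.173 and 0.258 FPKM (log2 fold change -0.79 ± 0.19, edgeR adjusted p = 0.00282). LAMB3 fell from 22 and 39 to 17 and 5 reads (log2 fold change -1.57 ± 0.52, edgeR adjusted p = 0.0206). LAMB3 rested on few reads, and its call was lost with DESeq2, without low-density replicate 2 (-1.25) and without high-density replicate 2 (-0.86), and moved to -2.80 without high-density replicate 1. LAMA4, an alpha chain of vessels and mesenchyme, fell from 129 and 136 to 71 and 69 reads (log2 fold change -1.06 ± 0.24, edgeR adjusted p = 0.00132). LAMA4 levels were 0.363 and 0.343 FPKM at low density and 0.246 and 0.147 FPKM at high density, so the high-density libraries differed more in FPKM than in reads.

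After ETV4 KD, 3 of the 5 laminin alpha chains fell, where 7.10% of all genes did, and none rose. LAMA1 fell from 12.2 and 10.5 to 8.92 and 6.49 FPKM (log2 fold change -0.56 ± 0.13, SE, n = 2 per group, edgeR adjusted p = 0.0224). LAMA2, the muscle alpha chain, fell from 1.83 and 1.55 to 1.26 and 0.951 FPKM (log2 fold change -0.61 ± 0.15, edgeR adjusted p = 0.0248). LAMA3 fell from 0.468 and 0.475 to 0.247 and 0.263 FPKM (log2 fold change -0.89 ± 0.17, edgeR adjusted p = 0.00973). LAMA5 was at 11.5 and 11.7 against 11.6 and 12.4 FPKM and its groups overlapped, so LAMA5 held 45.1% ± 2.9 (SD, n = 2) of the summed alpha chain FPKM in shControl and 56.1% ± 6.4 in shETV4. The call of LAMA1 was lost without shControl replicate 1 (-0.43), without shETV4 replicate 2 (-0.37) and in limma over all genes, and that of LAMA2 without the same libraries (-0.47 and -0.45) and in every limma fit. LAMA4 was at 0.647 and 0.583 against 0.407 and 0.320 FPKM (log2 fold change -0.66 ± 0.21, edgeR adjusted p = 0.0579, not called). It was called lower without shETV4 replicate 1 (-0.90) and with the replicate number as a block (-0.68).

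LAMB1, LAMB2 and LAMC1 were not called after ETV4 KD. LAMB1 (16.4 and 15.4 against 17.7 and 14.7 FPKM) overlapped between the groups, while LAMB2 (11.9 and 12.4 against 13.2 and 12.7 FPKM) did not. LAMC1 was at 31.2 and 28.1 against 25.1 and 19.9 FPKM, a log2 fold change of -0.40 ± 0.10 that was within the fold threshold (edgeR adjusted p = 0.0295) and passed it without shETV4 replicate 1 (-0.54). The ratio of LAMB1 to LAMC1 was 0.536 ± 0.015 (SD, n = 2) in shControl and 0.722 ± 0.022 in shETV4. LAMB3 rose from 53 and 76 to 127 and 136 reads (log2 fold change 1.04 ± 0.27, edgeR adjusted p = 0.0305), a call that was lost without shControl replicate 1 (0.77) and without shETV4 replicate 2 (0.93). Of the laminin of hemidesmosomes, LAMA3 therefore fell while LAMB3 rose. LAMB2 has a near copy, LAMB2P1, with 39 and 26 reads in shControl and 6 and 3 in shETV4, and reads of the pair could be split between them. Use of strand in the counting is not given in the sources used here, so reads where LAMB1, LAMA5, COL18A1 and COL9A3 overlap the opposite-strand genes DLD, ADRM1, SLC19A1 and TCFL5 are uncertain. The same holds for COL4A1 and COL4A2 where their spans overlap at their starts.

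Set side by side, 35 of the 52 chains were called in at least 1 experiment and 17 in neither. In both experiments 6 chains were called, which is 28.6% of the 21 calls with crowding and 30.0% of the 20 calls after ETV4 KD. Over all genes, 678 were called in both, 23.8% of the calls with crowding and 29.2% of those after ETV4 KD. Chains were called more often, at 41.2% with crowding and 40.0% after KD, against 16.1% and 13.0% of all genes. At such unlike call rates the shares cannot be compared, and the directions over all genes were not counted. COL5A2, COL6A3 and LAMA3 fell in both. COL12A1 (-2.07 with crowding, 0.54 after KD) and LAMB3 (-1.57 and 1.04) fell with crowding and rose after KD, and COL9A1 (0.84 and -0.56) did the reverse. The difference between the experiments was not tested, since the tables were made separately.

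Genes that assemble, cross-link and bind these chains were counted from 5 lists with 70 genes in all, chosen with earlier results of these data known. With crowding, 12 of the 66 tested rose (18.2%, against 10.7% of all genes) and 6 fell (9.09%, against 5.47%). Of the basement membrane linkers, 6 of 15 rose and 1 fell. PAPLN, which encodes papilin, rose from 1.17 and 1.10 to 8.43 and 6.70 FPKM (log2 fold change 2.70 ± 0.10, edgeR adjusted p = 1.43e-12). SPARC, a collagen-binding glycoprotein, fell from 117 and 110 to 63.9 and 58.5 FPKM (log2 fold change -0.95 ± 0.06, edgeR adjusted p = 1.22e-10), and NID2, which bridges laminin and collagen IV, rose by 0.50. The most abundant linker thus fell while 6 of lower level rose. Of 14 receptors tested, 1 rose and 4 fell. The laminin-binding integrin ITGA6 rose from 35.2 and 34.1 to 53.0 and 54.3 FPKM (log2 fold change 0.58 ± 0.05, edgeR adjusted p = 5.15e-08). The collagen-binding ITGA1 (-1.09), the laminin-binding ITGA3 (-0.80) and CD44 (-0.85) fell. Of 17 modifying enzymes and chaperones, P3H2 (0.68) and P4HA2 (0.52), which hydroxylate collagen prolines, rose, and the isomerase PPIB fell from 234 and 239 to 174 and 164 FPKM (log2 fold change -0.54). The propeptidase ADAMTS2 rose by 0.70 among 13 processing genes, of which 2 rose, and 1 of the 7 cross-linking enzymes rose.

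After ETV4 KD, 6 of the 66 rose (9.09%, against 5.88% of all genes) and 9 fell (13.6%, against 7.10%). The lysyl hydroxylases PLOD1 (18.2 and 19.6 to 11.9 and 10.8 FPKM, log2 fold change -0.74 ± 0.09, edgeR adjusted p = 0.00162) and PLOD2 (10.4 and 9.90 to 7.76 and 6.03 FPKM, log2 fold change -0.57 ± 0.11, edgeR adjusted p = 0.00935) fell, while P3H2 rose by 0.52. Of the lysyl oxidase family, which cross-links collagen, LOXL2 fell (-0.58) and LOXL3 rose (0.81). The procollagen peptidase ADAMTS14 fell (-0.98) and MIA2, which acts in secretion, rose (0.86). Receptors again went both ways, with 3 of 14 higher and 3 lower. The collagen receptor DDR2 rose from 2.22 and 1.86 to 3.92 and 3.83 FPKM (log2 fold change 0.93 ± 0.11, edgeR adjusted p = 0.00165), ITGA3 (0.51) and ITGA7 (0.50) rose, and the collagen-binding ITGA2 fell (-1.01). Of 15 linkers, 0 rose and 2 fell, and both, NPNT and NTN4, were below 1 FPKM.

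Markers of other cell types moved with both comparisons at levels that were mostly low. Over all genes, 10.7% rose and 5.47% fell with crowding, and 5.88% rose and 7.10% fell after ETV4 KD. Few markers were tested per list, so these shares stand beside the counts only as a background. Of 8 mesenchyme and fibroblast markers, 4 were in the crowding table and 3 of these fell. Their summed FPKM was 81.8 and 84.1 at low density and 54.7 and 55.2 at high density, nearly all of it THY1, which hESCs also express, and DCN, LUM, PRRX1 and TWIST1 were not listed. After KD, 5 were present and 2 fell, with sums of 121 and 122 in shControl and 73.1 and 67.4 in shETV4, and DCN, LUM and PRRX1 were not listed. Of 7 endoderm markers, 2 of the 3 tested fell with crowding (sums of 1.56 and 1.91 against 0.601 and 0.493 FPKM) and 2 of 3 rose after ETV4 KD (0.664 and 0.749 against 1.45 and 1.60 FPKM), led by AFP in both, and SOX17 and TTR were listed in neither table. Of 7 endothelial markers, 4 were tested with crowding, and their sum was 29.2 and 28.3 FPKM at low density and 33.1 and 37.3 FPKM at high density. KDR, the most abundant, was higher there but not called (log2 fold change 0.41), whereas TEK fell from 3.78 and 3.97 to 1.30 and 1.09 FPKM. After ETV4 KD, 2 of 6 endothelial markers fell (sums of 36.1 and 35.4 against 28.7 and 21.9 FPKM), KDR among them (30.3 and 28.9 against 20.9 and 14.4 FPKM), while TEK was not called (4.40 and 5.32 against 6.31 and 5.96 FPKM), and PECAM1 was listed in neither table. Mesendoderm markers (0 called) and neuroectoderm markers (1 of 2 tested higher and 1 lower with crowding, 0 called after KD) summed to at most 1.01 FPKM in any library. The part of these cells in the changes of the chains was not tested.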

How the data were processed

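The authors sequenced poly-A RNA from H9 hESCs with a stranded kit. Per the submitters' processing notes they used Trimmomatic, HISAT2 2.1.0 and StringTie 2.1.3b on GRCh37. They deposited 1 table per experiment with a raw read count per gene and library, not normalized, and they deposited FPKM values, normalized by the authors to transcript length and mapped reads. Each table lists genes with at least 1 read in every library of its experiment, so a chain without reads in 1 library is not in it. The tables hold 16 further per-sample columns, and the authors' fold changes and p-values, none of which was used.

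Groups came from the sample labels. Counts were fitted per experiment with edgeR 4.0.16 (R 4.3.3: filterByExpr, TMM, robust quasi-likelihood F-test) and adjusted over all genes tested. Standard errors are the size of the log2 fold change over the root of F. Summed FPKM, shares and ratios are means ± SD of 2 libraries. At 50359703 reads or more per library, counting error is small for abundant chains, and the spread between libraries, with a biological coefficient of variation of 6.83% for crowding and 9.93% for ETV4 KD, limits precision. Chains named are those called in either comparison, the most abundant of each class, the COL4A chains and the chains of 5 common laminins, and 1 chain that the rule names is not reported here. Of the matrix assembly lists, called genes with a mean of at least 1 FPKM are named, and NPNT and NTN4 were added after their values were seen. Members, lists and rules were chosen with earlier results of these data known. Positions come from GENCODE lifted to GRCh37 and promoters from RefSeq on GRCh38.p14. Tests were tried on simulated counts. The alternatives were DESeq2 1.42.0 and its size factors, other filters, the replicate number as a block, limma 3.58.1 on log2(FPKM + 0.5), a fold threshold of 1 and each library left out.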

Additional observations from a re-analysis of the deposited data

How the results depend on the processing

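Every called chain kept its direction in each setting in which it could be fitted. Of the called chains that are named, 5 of 20 with crowding and 5 of 20 after ETV4 KD kept their call in every setting at the same thresholds, and the other 15 in each comparison lost it in at least 1. limma on log2(FPKM + 0.5) with a mean FPKM of at least 0.5 called 6 chains higher and 4 lower with crowding and 7 lower after ETV4 KD, on 38 and 39 chains tested. With a pseudocount of 0.1 it called 4 lower with crowding and 8 lower after KD, and with a pseudocount of 1 it called 4 higher and 4 lower with crowding and 4 lower after KD. Over all genes it called 6 higher and 4 lower with crowding and 5 lower after KD. That fit ended the calls of all called chains with a mean below 0.5 FPKM, which were COL8A1, COL17A1, COL20A1, COL28A1, COL6A3, LAMA3, LAMA4 and LAMB3 with crowding and COL24A1, LAMA3 and LAMB3 after KD. At an absolute log2 fold change over 1, 3 chains were higher and 6 lower with crowding, and 3 higher and 2 lower after KD. Shares over all genes are not given for the limma fits or this threshold. Whether the chain counts followed the calls over all genes was not tested. Pseudocounts shrink the fold changes of chains of low FPKM by construction. For the other differences the cause was not tested.

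With 1 library left out, the lone library of its group is assumed to vary like the others. Adjusted p-values could be smaller in such fits than with all libraries, so a call kept or gained there is not a stricter test. After ETV4 KD calls were then lost in both directions, and the median log2 fold change of the chains ran from -0.37 to -0.21. Some chains that were not called changed sign around 0. The ranges with crowding were -0.031 to 0.069 for COL1A2, -0.061 to 0.044 for COL4A2, -0.060 to 0.13 for COL4A5, -0.060 to 0.10 for COL4A6 and -0.014 to 0.11 for COL5A1, and after KD -0.038 to 0.025 for COL4A5, -0.13 to 0.18 for COL4A6, -0.028 to 0.13 for LAMA5 and -0.082 to 0.13 for LAMB1. In the fits of FPKM, limma gave COL4A2 with crowding as 0.046 with a pseudocount of 0.5 (with and without the minimum level), 0.047 with 0.1 and 0.045 with 1.

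With the replicate number as a block (replicate block), 10 chains were higher and 11 lower with crowding, and 8 higher and 16 lower after ETV4 KD, where LAMA4 was then called at -0.68. No share over all genes is given for this fit either. The labels do not say that a number marks a shared culture, and same-numbered libraries did not deviate together (correlation -0.04 for crowding and 0.09 for KD). The depth leaves LAMB3, COL8A1, COL20A1, COL28A1, COL24A1, COL4A3, COL15A1, COL6A6 and COL3A1, with under 100 reads in most libraries, imprecise.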

Other observations

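The control groups of the experiments were not alike in these chains. At low density COL9A3 averaged 66.7 ± 1.6 FPKM (SD, n = 2), against 15.5 ± 1.2 FPKM in shControl, and LAMA5 25.1 ± 1.2 against 11.6 ± 0.1 FPKM. COL12A1 averaged 1.64 ± 0.02 and 0.80 ± 0.10 FPKM. The reverse held for COL5A2, at 3.79 ± 0.10 FPKM at low density and 7.44 ± 0.11 FPKM in shControl, for COL23A1, at 3.86 ± 0.46 and 7.53 ± 0.14 FPKM, and for COL6A3, at 0.358 ± 0.023 and 1.33 ± 0.17 FPKM. LAMC1 (29.6 FPKM in both), LAMA1 (11.4 and 11.3 FPKM), COL4A2 (25.0 and 27.7 FPKM) and COL5A1 (2.82 and 2.91 FPKM) were close. The tables were normalized separately and the cultures differ in more than the hairpin, so these differences were not tested.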
